A study of Mus musculus with 9 samples.

Results

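The 32 genes described here encode subunits of the receptors for glutamate and GABA, the main excitatory and inhibitory transmitters of the hippocampus. They were picked by gene symbol, as members of the receptor families, with earlier results of these data known. All 32 were among the 24394 genes of the count table. They comprise 4 AMPA, 4 kainate and 6 NMDA receptor subunits, 1 delta receptor, 6 metabotropic glutamate receptors, 9 GABA-A subunits and 2 GABA-B subunits. Other subunits of these families were not analysed here, except Grik4, a kainate subunit gene that served as a CA3 and CA2 marker. Polyadenylated RNA of postmortem hippocampus was sequenced from C57BL6/J mice, an inbred laboratory strain, in 9 libraries. The doxorubicin group (3 libraries) was injected with doxorubicin, an anthracycline used against cancer, which traps topoisomerase II on DNA. The doxorubicin plus MitoQ group (3 libraries) received the same injection together with a MitoQ supplement. MitoQ is a mitochondria-targeted form of ubiquinone with antioxidant action. The sham group (3 libraries) received saline. The series title calls the mice young. Exact age, sex, dose, interval and any pooling of animals were not stated in the sources used here. Because the labels do not say that each library came from its own mouse, p-values measure only how far these samples differ, and that spread may be technical.

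AMPA, kainate and NMDA receptors are tetrameric channels opened by glutamate. AMPA receptors carry most of the fast excitatory current, kainate receptors act on both sides of the synapse, and NMDA receptors admit calcium and trigger synaptic plasticity. Metabotropic glutamate receptors signal through G proteins. GABA-A receptors are pentameric chloride channels, and GABA-B receptors are obligate pairs of 2 different G protein-coupled subunits. In the hippocampus, subunit composition sets channel kinetics, calcium entry and the place of a receptor inside or outside the synapse.

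The libraries held 24.7 to 41.2 M (mega) counts. All 32 genes passed the filter on low counts, and the lowest count of any of them in a library was 102, for Gabrg3. The unit of level is CPM, counts per M counts of a TMM-scaled library, and genes are compared with each other in CPM per kb of exon. Hippocampal markers were present throughout: the summed level of 8 CA1 markers was 869 to 933 CPM in the doxorubicin libraries, 957 to 1026 CPM in the MitoQ libraries and 977 to 1038 CPM in sham. The 12 CA3 and CA2 markers summed to 1755 to 2031 CPM in the doxorubicin libraries, 1603 to 1803 CPM in the MitoQ libraries and 1395 to 1715 CPM in sham. They include the kainate subunit gene Grik4, and Cacng5, which is also counted below among the auxiliary proteins of AMPA and kainate receptors. Choroid plexus markers, which belong to a tissue next to the hippocampus, summed to 4144, 74 and 2170 CPM in the doxorubicin libraries, in replicate order. These markers summed to 3528, 1358 and 5298 CPM with MitoQ and to 85.2, 5059 and 95.9 CPM in sham. The part of this tissue in the receptor results was not tested.

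Doxorubicin replicate 3 stood apart for these genes. It had the lowest level of the 9 libraries in 16 of 32 receptor genes (50%), against 22% of all 15296 genes tested, and the highest in 6 (18.8%), against 21.7%. The mean log2 level of the 32 genes relative to the sham mean was -0.21 in that library, and between -0.05 and 0.08 in the other 8. Sham replicate 2 was the lowest library for 8 receptor genes (25%), against 16.5% of all genes. Within the doxorubicin group the median SD of a receptor gene was 0.14 on the log2 scale with all 3 libraries and 0.05 without replicate 3; for all genes tested it was 0.13 and 0.08. Values without single libraries are given below for some of the genes whose fold changes they moved.

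**Figure D1:**
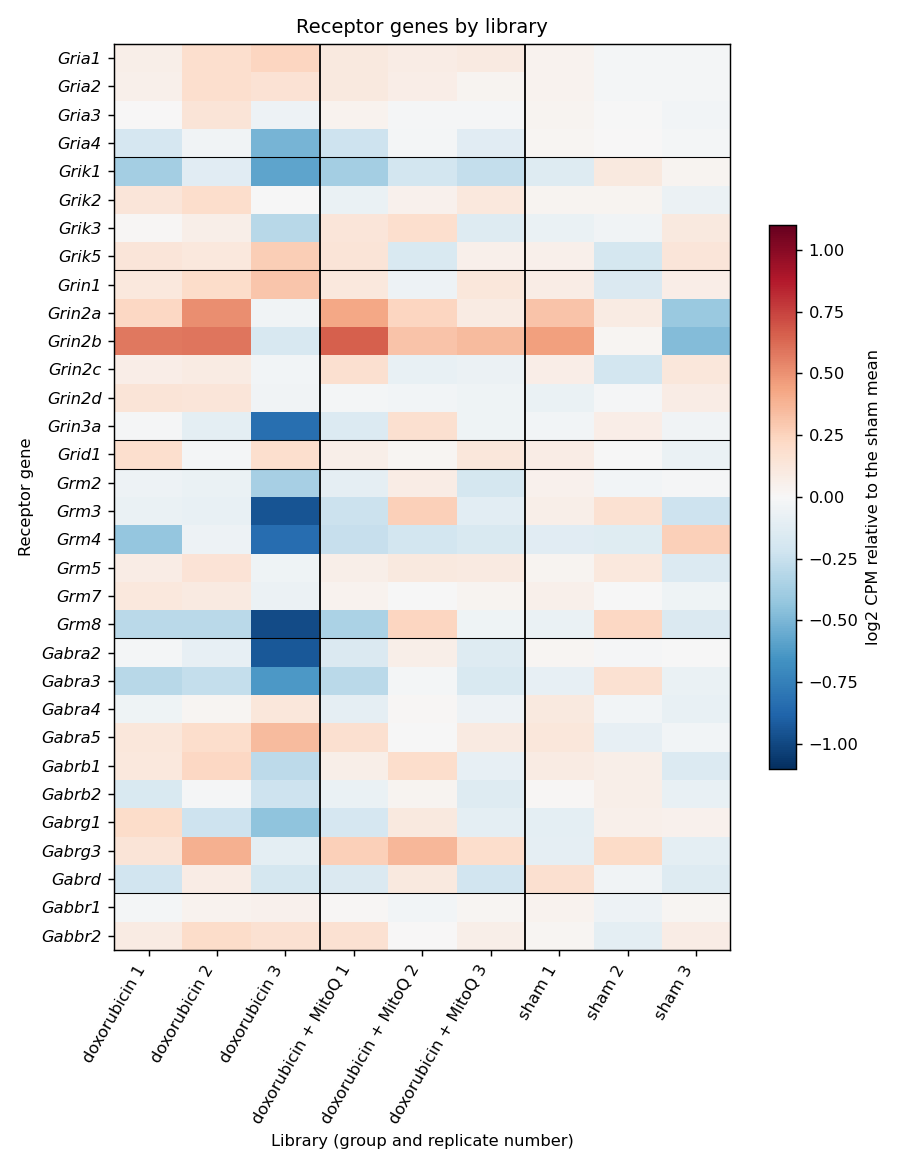
Levels of the 32 receptor genes (rows, ordered by receptor class, black lines between classes) in the 9 libraries (columns), as log2 CPM relative to the mean of the sham libraries. The column of doxorubicin replicate 3 holds the darkest blue cells, at Grm3, Grm8, Gabra2, Grm4 and Grin3a, while Gria1, Grin1 and Gabra5 are red in the same column.

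In sham hippocampus the transcripts were far from evenly spread over the subunits. Per kb of exon, Gria1 had the highest level of the 32 genes, at 231 CPM per kb, followed by Grin1 at 156 and Gabbr1 at 125 CPM per kb. Gabrg3 was lowest, at 0.398 CPM per kb. Within the AMPA class, Gria1 made up 65.7 ± 1.37% of the length-scaled level after doxorubicin, 65.3 ± 0.43% with MitoQ and 64.3 ± 0.113% in sham (SD, n = 3 each). Gria2, the subunit that makes AMPA receptors calcium-impermeable, held 21 ± 0.182%, 20.9 ± 0.398% and 21 ± 0.0288%. Grin1, the obligate NMDA subunit, held 85.2 ± 2.51%, 83.5 ± 1.2% and 83.7 ± 1.05% of its class, and Grik5 83.7 ± 2.24%, 81.7 ± 2.32% and 81.5 ± 1.95% of the kainate class. Of the 9 GABA-A genes, Gabra5, the alpha subunit of extrasynaptic receptors enriched in hippocampus, held 39.4 ± 3.38% after doxorubicin, 36.1 ± 2.88% with MitoQ and 33.5 ± 1.82% in sham. Gabrb2 held 30.1 ± 1.48%, 31.8 ± 1.09% and 32.8 ± 1.26%. These shares are of the genes analysed here and of exon lengths merged over all annotated transcripts, so long annotated ends lower a gene's share; Grin2b has 24.8 kb of exon.

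**Figure D2:**
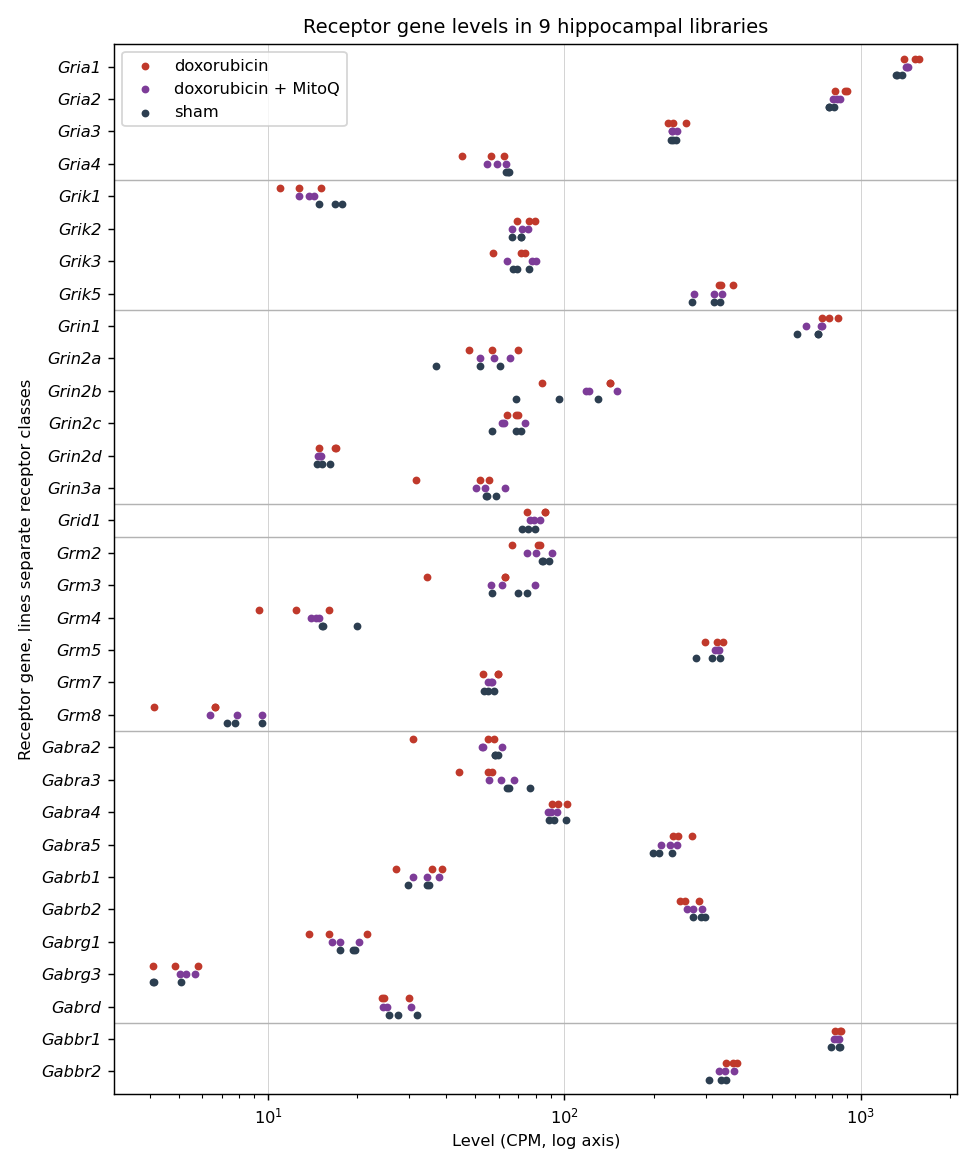
Level of each receptor gene in CPM on a log axis, 1 point per library, with the doxorubicin libraries above, the MitoQ libraries in the middle and the sham libraries below on each row. Levels ran from 4.08 CPM for Gabrg3 to 1573 CPM for Gria1, and the 3 groups lie close together on most rows.

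The first comparison set doxorubicin against sham. No receptor gene passed the threshold of an adjusted p under 0.05 in edgeR's quasi-likelihood F test (0 of 32), and neither did any of the 15296 genes tested (0%). DESeq2 called 44 genes (0.288%) and limma-voom 0, with 0 of 32 receptor genes in either. At an unadjusted p under 0.05 in edgeR there were 10 of 32 receptor genes (31.2%), against 8.83% of all genes tested. The receptor genes were chosen with earlier results of these data known, and this count after seeing the data. Shares above those of all genes are therefore descriptions only. Higher after doxorubicin were Gria1, Gria2, Grin1, Gabra5 and Gabbr2, 5 of 32 (15.6%) against 4.33% of all genes in that direction. Lower were Gria4, Grik1, Grm4, Grm8 and Gabra3, again 5 of 32 (15.6%) against 4.49%. This count rested on single libraries: without doxorubicin replicate 3 it was 3 (Grik2, Grin2b and Gabra3; 9.38% against 7.41% of all genes), and without sham replicate 2 it was also 3 (Gria1, Grm4 and Gabra3; 9.38% against 6.36%). Doxorubicin and sham libraries did not overlap in 10 of 32 genes (31.2%), against 13% of all genes. Of these, Gria1, Gria2, Grin1, Gabra5 and Gabbr2 were higher after doxorubicin (15.6%, against 6.2% of all genes), and Gria4, Grm2, Grm8, Gabra2 and Gabra3 lower (15.6%, against 6.79%). Of the 10 genes, Gabra3 alone had an unadjusted p under 0.05 whichever of the 9 libraries was left out. Over the 32 genes the median log2 fold change was 0.03, with 19 higher and 13 lower, and over all genes tested it was 0.00.

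**Figure D3:**
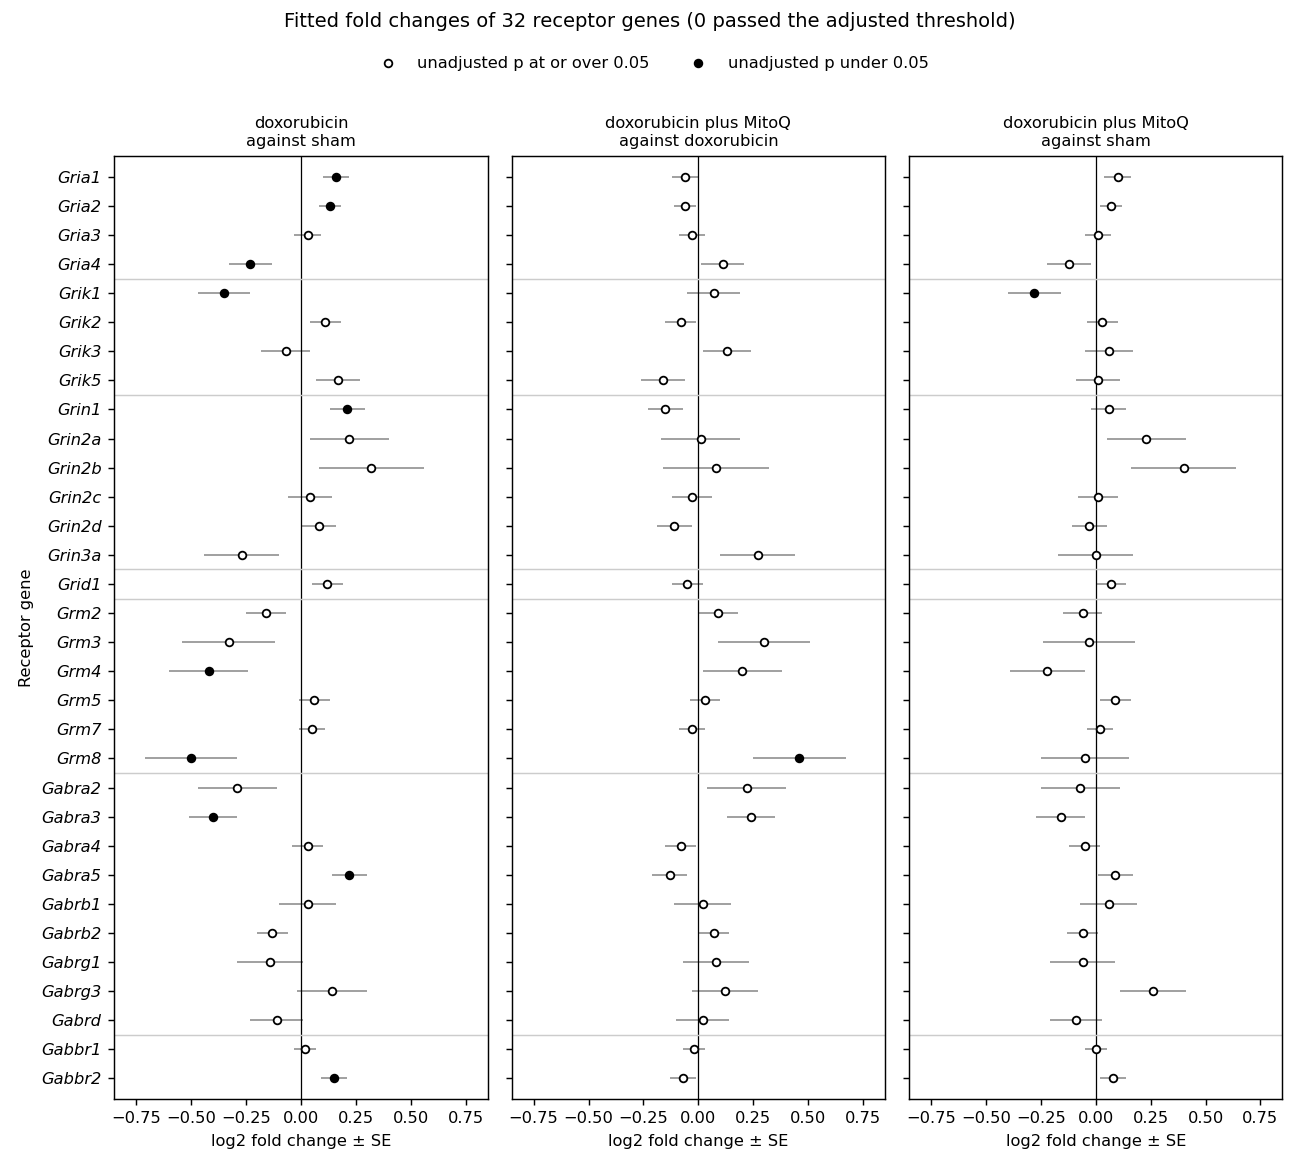
Fitted log2 fold change (points) with its standard error (bars) for each receptor gene in doxorubicin against sham (left), doxorubicin plus MitoQ against doxorubicin (middle) and doxorubicin plus MitoQ against sham (right); filled points have an unadjusted p under 0.05. There are 10 filled points on the left, 1 in the middle (Grm8) and 1 on the right (Grik1), and none passed the adjusted threshold; the middle and right panels share libraries with the left one.

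Among AMPA receptor genes the abundant subunits lay slightly above sham. Gria1 encodes GluA1, the subunit whose insertion into synapses accompanies long-term potentiation. It stood at 1398, 1518 and 1573 CPM in the doxorubicin libraries, 1443, 1417 and 1434 CPM in the MitoQ libraries and 1377, 1318 and 1321 CPM in the sham libraries. Each doxorubicin and each MitoQ library was above each sham library, with doxorubicin replicate 1 closest to sham. Doxorubicin was 1.12-fold higher than sham (log2 fold change 0.16 ± 0.06 SE, unadjusted p = 0.018, adjusted p = 0.49, edgeR). The log2 fold change was 0.12 without doxorubicin replicate 3 (unadjusted p = 0.066). Gria2 had 820, 900 and 882 CPM in doxorubicin libraries, 852, 831 and 808 CPM with MitoQ and 812, 779 and 780 CPM in sham. Its doxorubicin libraries also lay above all sham libraries, by 0.13 ± 0.05 (unadjusted p = 0.031, adjusted p = 0.52), and by 0.10 without doxorubicin replicate 2 (unadjusted p = 0.13). Gria3 had 233, 257 and 224 CPM in doxorubicin libraries, 239, 230 and 231 CPM with MitoQ and 238, 232 and 228 CPM in sham, so its groups overlapped. Gria4, the least abundant of the 4 genes, averaged 54.7 ± 8.79 CPM after doxorubicin, 59.1 ± 4.29 CPM with MitoQ and 64.3 ± 0.948 CPM in sham (SD, n = 3 each). Its log2 fold change against sham was -0.23 ± 0.1 with all libraries, -0.11 without doxorubicin replicate 3 and -0.35 without doxorubicin replicate 2. The summed level of the 4 genes was 2508 to 2737 CPM in the doxorubicin libraries, 2532 to 2589 CPM with MitoQ and 2392 to 2493 CPM in sham, most of it from Gria1 and Gria2, without overlap between either drug group and sham. Doxorubicin sums also lay above sham for kainate genes (497 to 507 against 427 to 495 CPM) and NMDA genes (1078 to 1131 against 887 to 1046 CPM). Most of the kainate sum came from Grik5, whose groups overlapped, and most of the NMDA sum from Grin1. Gene by gene, the kainate class had 2 higher and 2 lower after doxorubicin, with a median log2 fold change of 0.02. The metabotropic, GABA-A and GABA-B sums and Grid1 overlapped between doxorubicin and sham. No background share was obtained for such sums.

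Kainate receptor genes differed in sign. Grik1, which encodes GluK1 and is found mostly in hippocampal interneurons, had 12.7, 15.1 and 11 CPM in doxorubicin libraries, 12.7, 14.3 and 13.7 CPM with MitoQ and 14.9, 17.7 and 16.8 CPM in sham. Doxorubicin and sham overlapped only through doxorubicin replicate 2 and sham replicate 1. The log2 fold change of Grik1 was -0.35 ± 0.12 (unadjusted p = 0.016, adjusted p = 0.49, edgeR), and -0.25 without doxorubicin replicate 3 (unadjusted p = 0.059). Grik5, encoding the high-affinity subunit GluK5, had 337, 333 and 370 CPM in doxorubicin libraries, 339, 274 and 319 CPM with MitoQ and 320, 269 and 336 CPM in sham. Its groups overlapped, and sham replicate 2 was the lowest library. The log2 fold change of Grik5 was 0.17 ± 0.1, and 0.07 without sham replicate 2. Grik2, the principal GluK2 subunit, had 76.2, 79.6 and 69.3 CPM in doxorubicin libraries, 66.3, 71.8 and 75.2 CPM with MitoQ and 71.2, 71.2 and 66.4 CPM in sham, and Grik3 averaged 67.6, 73.9 and 70.8 CPM in the same order. Both overlapped with sham.

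Of the NMDA receptor genes, Grin1 encodes GluN1, which every NMDA receptor contains. Grin1 had 737, 781 and 837 CPM in doxorubicin libraries, 735, 653 and 741 CPM with MitoQ and 717, 609 and 716 CPM in sham. All doxorubicin libraries were above all sham libraries, and sham replicate 2 was the lowest of the 9. The log2 fold change was 0.21 ± 0.08 (unadjusted p = 0.028, adjusted p = 0.52). It was 0.13 without sham replicate 2 (unadjusted p = 0.12) and 0.16 without doxorubicin replicate 3 (0.096). Grin2a and Grin2b encode GluN2A and GluN2B, which set the kinetics of the channel and exchange during development. Grin2b had 142, 143 and 83.9 CPM in doxorubicin libraries, 150, 118 and 121 CPM with MitoQ and 130, 96.2 and 68.4 CPM in sham. Doxorubicin replicate 3 and sham replicate 3 were the low libraries of their groups, and the ranges overlapped. The log2 fold change of Grin2b was 0.32 ± 0.24 (unadjusted p = 0.2). Single libraries decided its size: it was 0.53 without doxorubicin replicate 3 and 0.57 without sham replicate 1, but 0.11 without sham replicate 3, 0.2 without doxorubicin replicate 1 and 0.19 without doxorubicin replicate 2. Grin2a had 57.1, 69.5 and 47.5 CPM in doxorubicin libraries, 65.7, 57.7 and 52.1 CPM with MitoQ and 60.8, 52.1 and 36.8 CPM in sham, with the same pair of low libraries. Its log2 fold change of 0.22 ± 0.18 ranged from 0.04 without sham replicate 3 to 0.38 without sham replicate 1, and was 0.34 without doxorubicin replicate 3 and 0.06 without doxorubicin replicate 2. Grin3a, encoding the GluN3A subunit of immature synapses, averaged 46.3 ± 13 CPM after doxorubicin, 55.7 ± 6.45 CPM with MitoQ and 55.9 ± 2.42 CPM in sham. The low doxorubicin mean came from replicate 3, at 31.5 CPM, and the log2 fold change was -0.27 with it and -0.06 without it; without doxorubicin replicate 1 it was -0.43. Grin2c averaged 67.5, 66 and 65.7 CPM in doxorubicin, MitoQ and sham, and Grin2d 16.2, 15 and 15.3 CPM. Grid1, the delta receptor GluD1 that organises synapses rather than passing glutamate-gated current, averaged 82.1 ± 6.49, 79.5 ± 2.95 and 75.6 ± 4.01 CPM.

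Grin2a and Grin2b also have the longest merged exons of the 32 genes, 15 and 24.8 kb, and long transcripts varied between libraries. Over 484 tested genes with at least 10 kb of exon, the median log2 level relative to the mean of the 9 libraries was -0.12 in doxorubicin replicate 3 and -0.12 in sham replicate 3, and between -0.03 and 0.09 in the other 7 libraries. The 6 receptor genes of that length (Gria2, Grik2, Grin2a, Grin2b, Gabrb1 and Gabrg3) had medians of -0.22 and -0.21 in the same libraries, and between -0.04 and 0.23 in the other 7. Over the 32 genes, the Spearman correlation of exon length with log2 fold change was 0.33 for doxorubicin against sham. It was 0.06 for MitoQ against doxorubicin and 0.50 for MitoQ against sham. Over all genes with a known length, the values were 0.12, 0.03 and 0.18. Without doxorubicin replicate 3, the first correlation was 0.55, against 0.25 over all genes. The part of transcript length in these results was not tested.

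Metabotropic receptors had the lowest class median against sham, at -0.24, with 2 of 6 genes higher and 4 lower; without doxorubicin replicate 3 the median was -0.08. Grm8, a group III receptor of presynaptic terminals, had 6.64, 6.62 and 4.12 CPM in doxorubicin libraries, 6.37, 9.58 and 7.86 CPM with MitoQ and 7.75, 9.53 and 7.28 CPM in sham. No doxorubicin library reached the lowest sham library. Its log2 fold change was -0.5 ± 0.21 (unadjusted p = 0.035, adjusted p = 0.53), and -0.31 without doxorubicin replicate 3 or -0.38 without sham replicate 2 (unadjusted p = 0.12 each). Grm4, of the same group, averaged 12.6 ± 3.39 CPM after doxorubicin, 14.5 ± 0.434 CPM with MitoQ and 16.8 ± 2.71 CPM in sham (log2 fold change -0.42 ± 0.18, unadjusted p = 0.039, adjusted p = 0.53). The value for Grm4 was -0.24 without doxorubicin replicate 3 (unadjusted p = 0.14), -0.28 without sham replicate 3 (0.15) and -0.64 without doxorubicin replicate 2 (0.0025). Grm3, a group II receptor abundant in astrocytes, averaged 53.6 ± 16.5, 65.8 ± 12.3 and 67.1 ± 9.29 CPM, with doxorubicin replicate 3 at 34.5 CPM; the log2 fold change was -0.33 with it and -0.09 without it. Grm2 averaged 76.8 ± 8.79, 82 ± 8.16 and 85.7 ± 2.62 CPM (log2 fold change -0.16, and -0.07 without doxorubicin replicate 3). The postsynaptic group I receptor Grm5 averaged 322 ± 22.5, 328 ± 4.47 and 309 ± 28.4 CPM, and presynaptic Grm7 57.5 ± 3.89, 56.3 ± 0.8 and 55.4 ± 2.13 CPM, both within the spread of the libraries.

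The smallest p of the 32 genes belonged to Gabra3, which encodes the alpha 3 subunit of GABA-A receptors. Gabra3 had 55.4, 56.9 and 44.1 CPM in doxorubicin libraries, 55.6, 67.5 and 61 CPM with MitoQ and 64.1, 76.6 and 65.1 CPM in sham. Every doxorubicin library was below every sham library, and the MitoQ libraries overlapped with both groups. Doxorubicin was 1.32-fold lower than sham (log2 fold change -0.4 ± 0.11, unadjusted p = 0.0043, adjusted p = 0.48, edgeR). Its unadjusted p was below 0.05 whichever library was left out, with p from 0.0034 to 0.019 and log2 fold changes from -0.47 to -0.29. Gabra5 lay on the opposite side, with 232, 242 and 270 CPM in doxorubicin libraries, 240, 211 and 227 CPM with MitoQ and 231, 199 and 208 CPM in sham. Doxorubicin replicate 1 was just above sham replicate 1, and replicate 3 was the highest of the 9 libraries. The log2 fold change of Gabra5 was 0.22 ± 0.08 (unadjusted p = 0.014, adjusted p = 0.49), 0.16 without doxorubicin replicate 3 (unadjusted p = 0.058) and 0.17 without sham replicate 2 (0.063). In bulk tissue, fewer cells of a type and less RNA per cell cannot be told apart.

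Promoter sequences of Gabra3 and Gabra5 are shown because these genes had the smallest p in either direction, and that of Grin1 stands beside them for an abundant glutamate receptor gene. They are the 250 bases before the annotated start, from RefSeq on build GRCm38.p6, 5′ to 3′ on the strand of the gene, which is the minus strand in each. They lie at chrX:72656808-72657057 (Gabra3), chr7:57510060-57510309 (Gabra5) and chr2:25319188-25319437 (Grin1). Capitals mark CG dinucleotides, and in Gabra3 the letters of a TATAAA match on the opposite strand.
Gabra3: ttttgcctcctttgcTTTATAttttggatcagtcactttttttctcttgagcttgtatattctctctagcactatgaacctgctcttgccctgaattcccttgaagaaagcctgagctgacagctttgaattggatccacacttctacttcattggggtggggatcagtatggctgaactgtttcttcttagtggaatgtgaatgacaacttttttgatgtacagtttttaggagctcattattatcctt
Gabra5: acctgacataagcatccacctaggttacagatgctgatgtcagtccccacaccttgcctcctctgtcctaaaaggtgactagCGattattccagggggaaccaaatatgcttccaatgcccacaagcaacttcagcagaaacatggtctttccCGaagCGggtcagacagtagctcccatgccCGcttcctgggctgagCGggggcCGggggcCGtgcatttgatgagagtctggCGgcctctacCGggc
Grin1: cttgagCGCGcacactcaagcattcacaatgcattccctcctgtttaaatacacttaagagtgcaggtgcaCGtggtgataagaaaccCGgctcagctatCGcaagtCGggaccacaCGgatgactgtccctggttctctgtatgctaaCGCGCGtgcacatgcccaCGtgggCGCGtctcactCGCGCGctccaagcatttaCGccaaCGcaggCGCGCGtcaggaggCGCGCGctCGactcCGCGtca
The Gabra3 sequence has a GC content of 39.2% and 0 CG dinucleotides, that of Gabra5 56.4% and 9, and that of Grin1 58.8% and 27. The median over 32851 mouse promoters of the same length was 52.4% GC and 6 CG dinucleotides, and over 29 promoters of the 22 receptor genes with an entry 61.2% and 9. On both strands, TATAAA was found in 12.4% of all promoters and in 3 of 29 receptor promoters (Gabra3 and Gabrb2). Gabra3 has another annotated start, and its promoter overlaps the printed sequence and holds the same match, which is therefore counted for both. The cAMP response element TGACGTCA was in 1.55% of all promoters and in 0 of 29, and the RE1 half-site TTCAGCACC in 0.301% and in 1 of 29 (Grm2). These matches are descriptions of the sequence only.

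The other GABA-A genes showed less. Gabra2, the alpha 2 subunit of synapses on the axon initial segment, had 57.8, 55.4 and 30.9 CPM in doxorubicin libraries, 52.8, 61.7 and 53.3 CPM with MitoQ and 59.7, 58.3 and 58.5 CPM in sham. All 3 doxorubicin libraries were below sham, but replicates 1 and 2 only narrowly, and replicate 3 had 54.6% of their mean. The log2 fold change of Gabra2 was -0.29 ± 0.18 with all libraries, -0.05 without replicate 3 and -0.45 without replicate 1. Gabrb2, a beta subunit of synaptic receptors, averaged 262 ± 20.1 CPM after doxorubicin, 275 ± 16.5 CPM with MitoQ and 286 ± 13.8 CPM in sham. Gabra4 averaged 96.1 ± 5.77, 90.8 ± 3.45 and 94.1 ± 6.52 CPM, and Gabrd, its extrasynaptic partner in dentate granule cells, 26.3 ± 3.12, 26.6 ± 3.17 and 28.3 ± 3.21 CPM. Gabrb1 averaged 33.8 ± 6.07, 34.3 ± 3.38 and 33 ± 2.9 CPM, and Gabrg1 17.2 ± 4.02, 18.1 ± 1.97 and 18.9 ± 1.17 CPM. Gabrg3 had 4.86, 5.79 and 4.08 CPM in doxorubicin libraries, 5.28, 5.66 and 5.04 CPM with MitoQ and 4.11, 5.09 and 4.08 CPM in sham, with overlapping groups. Gabra2, Gabra4, Gabrb1 and Gabrg1 lie in 1 cluster on chromosome 5, and Gabra5 and Gabrg3 are 20483 bases apart on chromosome 7 (GENCODE M21, GRCm38). Within the chromosome 5 cluster the log2 fold changes against sham were -0.29 (Gabra2), 0.03 (Gabra4), 0.03 (Gabrb1) and -0.14 (Gabrg1). Without doxorubicin replicate 3 they were -0.05, -0.02, 0.17 and 0.00.

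The GABA-B receptor needs both of its subunits, Gabbr1, which binds GABA, and Gabbr2, which couples to G proteins. Gabbr1 had 816, 848 and 856 CPM in doxorubicin libraries, 834, 812 and 841 CPM with MitoQ and 849, 795 and 841 CPM in sham, with overlapping groups. Gabbr2 had 352, 381 and 371 CPM in doxorubicin libraries, 372, 333 and 347 CPM with MitoQ and 337, 307 and 351 CPM in sham. The lowest doxorubicin library was just above the highest sham library. Log2 fold changes were 0.02 ± 0.05 for Gabbr1 and 0.15 ± 0.06 for Gabbr2 (unadjusted p = 0.7 and 0.04, adjusted p = 0.93 and 0.54). Without sham replicate 2, the lowest library, Gabbr2 was at 0.09 (unadjusted p = 0.18).

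Without doxorubicin replicate 3, all 13 receptor genes with a negative log2 fold change against sham were nearer to 0 or, for Grik3, above it (0.04). Compared with the mean of the other doxorubicin libraries, replicate 3 held 54.6% for Gabra2, 54.8% for Grm3, 58.6% for Grin3a, 59% for Grin2b, 62.1% for Grm8 and 65.5% for Grm4. It held 108% for Gria1, 110% for Grin1 and 114% for Gabra5. Marker levels moved in the same library: relative to the sham mean, the mean log2 level was 0.44 for 12 CA3 and CA2 markers, 0.34 for 10 dentate granule cell markers, -0.37 for 8 CA1 markers and -0.47 for 10 neocortex markers. The other doxorubicin libraries had 0.16 to 0.23 for CA3 and CA2, 0.02 to 0.04 for dentate, -0.19 to -0.13 for CA1 and -0.36 to -0.34 for neocortex. Astrocyte markers stood at -0.05 in replicate 3. Among the astrocyte-enriched receptor genes, Grin2c was at -0.03, Grm3 at -0.95 and Gabrg1 at -0.45. The summed level of the 10 neocortex markers was 347 to 383 CPM in doxorubicin libraries, 378 to 430 CPM with MitoQ and 456 to 468 CPM in sham. The part of regional composition in the receptor results was not tested.

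**Figure D4:**
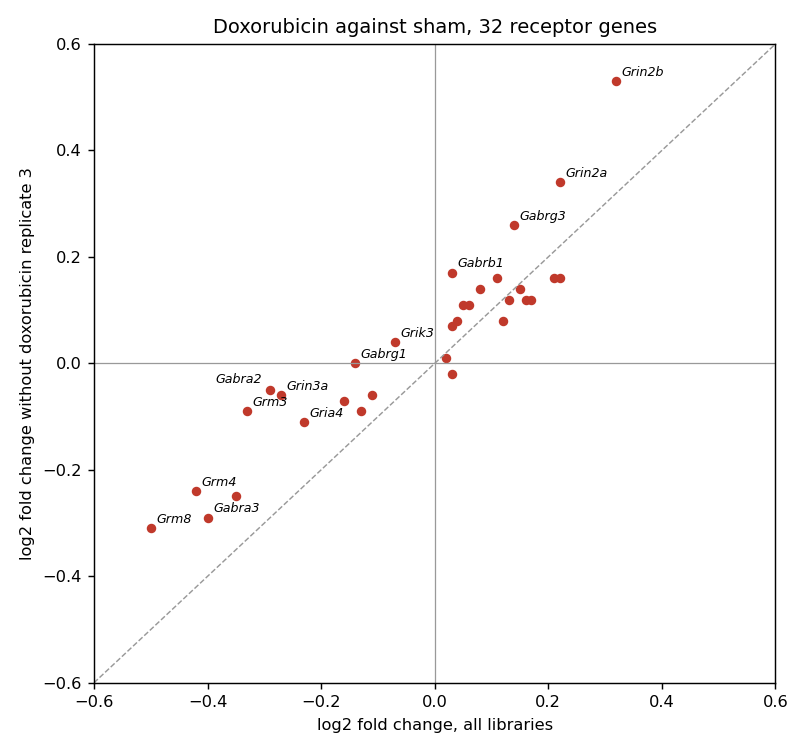
Log2 fold change of doxorubicin against sham for the 32 receptor genes with all libraries (horizontal axis) and without doxorubicin replicate 3 (vertical axis); the dashed line marks equal values. Genes whose value moved by more than about 0.1 are named; Grm3 moved to -0.09, Gabra2 to -0.05 and Grin2b to 0.53.

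The second comparison set doxorubicin plus MitoQ against doxorubicin alone. No receptor gene was called (0 of 32; 0% of all genes in edgeR and limma-voom, and 0.0327% in DESeq2). At an unadjusted p under 0.05 there was 1 of 32 (3.12%), against 3.3% of all genes, and in 0 of 32 did the libraries not overlap, against 9.71%. Grm8, in the libraries given above, was 1.37-fold higher with MitoQ (log2 fold change 0.46 ± 0.21, unadjusted p = 0.049, adjusted p = 0.97, edgeR), 0.26 without doxorubicin replicate 3 and 0.3 without MitoQ replicate 2. Its MitoQ replicate 1 lay below the doxorubicin libraries 1 and 2. Gabra3 followed with 0.24 ± 0.11 (unadjusted p = 0.054, adjusted p = 0.97), then Grin1 with -0.15 ± 0.08 and Gabra5 with -0.13 ± 0.08 (unadjusted p = 0.1 each). Without doxorubicin replicate 3 these were 0.13, -0.10 and -0.07, and without MitoQ replicate 2 they were 0.16, -0.09 and -0.09. The median over the 32 genes was 0.02, with 18 higher and 14 lower, against -0.00 over all genes; without doxorubicin replicate 3 it was -0.03. By class it was 0.15 for metabotropic receptors and 0.07 for GABA-A genes, and 0.01 and -0.02 without that library.

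The third comparison set doxorubicin plus MitoQ against sham, and it again called 0 of 32 receptor genes (0% of all genes in edgeR and limma-voom, and 0.0131% in DESeq2). At an unadjusted p under 0.05 there was 1 of 32 (3.12%), against 2.95% of all genes. This was Grik1, 1.22-fold lower with MitoQ than in sham (log2 fold change -0.28 ± 0.12, unadjusted p = 0.04, adjusted p = 1, edgeR), with no overlap between the groups. Its unadjusted p was 0.12 without MitoQ replicate 1 and 0.11 without sham replicate 2. Gabrg3, Grin2b and Gria1 came next, with 0.26 ± 0.15, 0.4 ± 0.24 and 0.1 ± 0.06 (unadjusted p = 0.12 each); Grin2b was at 0.19 without sham replicate 3 and 0.65 without sham replicate 1. MitoQ and sham libraries did not overlap in 3 of 32 genes (9.38%), against 9.11% of all genes. Gria1 was higher with MitoQ (3.12%, against 4.11% of all genes), and Grik1 and Grm4 were lower (6.25%, against 5%). The comparisons share libraries, so a value in one is not independent of the others. Against sham, the doxorubicin and MitoQ groups had log2 fold changes of -0.4 and -0.16 for Gabra3, 0.22 and 0.09 for Gabra5, -0.35 and -0.28 for Grik1, -0.5 and -0.05 for Grm8, and 0.16 and 0.1 for Gria1. These genes had the smallest p in comparisons with the doxorubicin group, a choice that favours larger values there. Others lay further from sham with MitoQ, such as Grin2b (0.32 and 0.40), Gabrg3 (0.14 and 0.26) and Grm5 (0.06 and 0.09). Tested for any difference among the 3 groups, 3 of 32 genes had an unadjusted p under 0.05 (Grik1, Gabra3 and Gabra5; 9.38% against 5.11% of all genes), and 0 were called.

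Ratios between subunits within a library do not depend on its scaling. Gabra5 counts per Gabra2 count were 4.01, 4.37 and 8.72 in doxorubicin libraries, 4.55, 3.42 and 4.25 with MitoQ and 3.87, 3.42 and 3.56 in sham. Every doxorubicin library exceeded every sham library, with replicate 3 far above the rest. The log2 ratio was 0.57 higher after doxorubicin than in sham (exact two-sided permutation test, p = 0.1, adjusted over 18 tests p = 0.45). Without doxorubicin replicate 3 this difference was 0.21. Gabra5 lay above and Gabra2 below all sham libraries in every doxorubicin library. The separation of their ratio, and its p, follow from that and add no support. Gabbr1 counts per Gabbr2 count were 2.32, 2.23 and 2.31 in doxorubicin libraries, 2.24, 2.44 and 2.42 with MitoQ and 2.52, 2.59 and 2.4 in sham, a log2 difference of -0.13 between doxorubicin and sham (exact p = 0.1, adjusted 0.45). Gria3 counts per Gria2 count were 0.284, 0.285 and 0.254 in doxorubicin libraries, 0.281, 0.277 and 0.286 with MitoQ and 0.293, 0.298 and 0.292 in sham. Both drug groups lay below all sham libraries, by -0.1 for doxorubicin and -0.06 with MitoQ on the log2 scale (exact p = 0.1 each, adjusted 0.45). Without doxorubicin replicate 3 the difference for doxorubicin was -0.05. With 3 libraries against 3, 0.1 is the smallest p this test can give. The ratios Grin2a/Grin2b and Grik2/Grik5 overlapped between all groups. Gria1 counts per Gria2 count were 1.71, 1.69 and 1.78 in doxorubicin libraries, 1.69, 1.7 and 1.78 with MitoQ and 1.69 in each sham library.

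**Figure D5:**
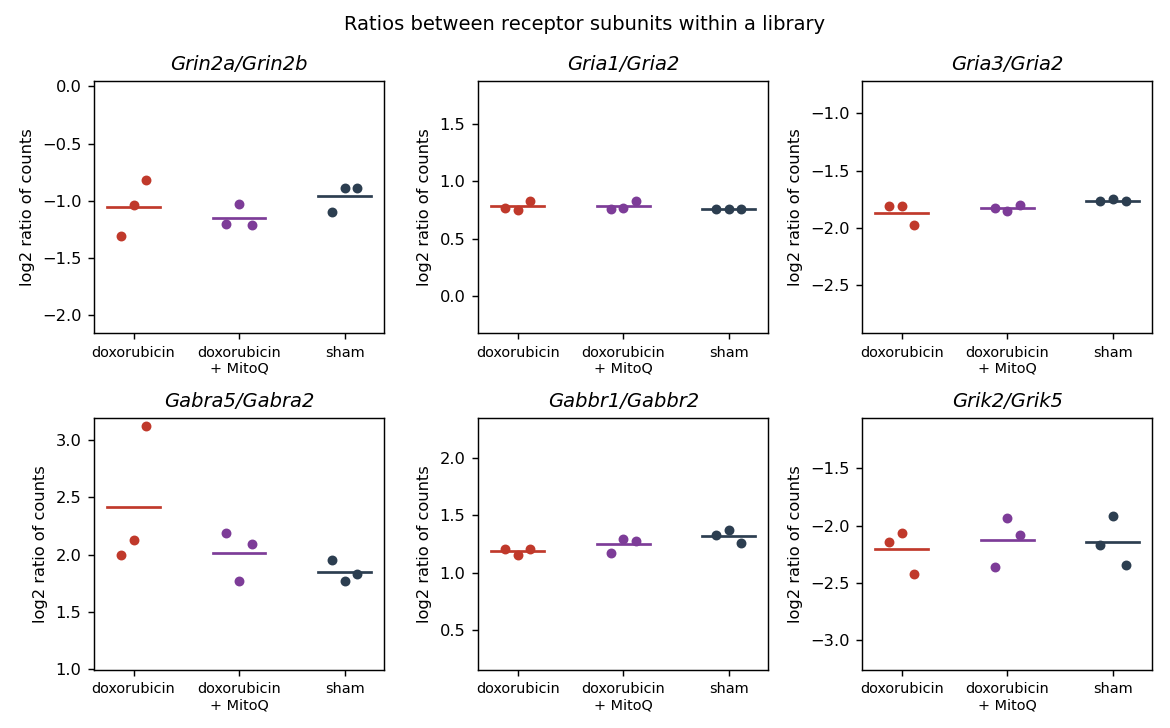
Log2 ratio of counts between subunit pairs, 1 panel per pair, all panels spanning the same height; points are libraries in replicate order and lines are group means. Doxorubicin replicate 3 lies at 3.12 in the Gabra5/Gabra2 panel, above the other 8 libraries, which lie between 1.77 and 2.19.

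Genes that work with the receptors were examined as lists. Of 15 auxiliary proteins of AMPA and kainate receptors, 9 were higher and 6 lower after doxorubicin, with a median log2 fold change of 0.09 and 0 called. Neto1, which binds kainate and NMDA receptors, averaged 131 ± 2.28 CPM in doxorubicin libraries, against 108 ± 10 CPM in sham ones (log2 fold change 0.28 ± 0.09, unadjusted p = 0.0092, adjusted p = 0.48, edgeR). The TARP genes Cacng8 and Cacng3 lay on opposite sides, at 161 ± 6.76 and 58.6 ± 1.68 CPM in doxorubicin libraries, against 139 ± 9.59 and 68.3 ± 6.94 CPM in sham ones (log2 fold changes 0.22 and -0.22). Of 10 GABA receptor partners, 6 were higher and 4 lower, with a median of 0.04 and 0 called. Slitrk3, which encodes an adhesion protein of inhibitory synapses, averaged 106 ± 4.63 CPM in doxorubicin libraries, against 95.3 ± 8.2 CPM in sham ones (log2 fold change 0.16 ± 0.07, unadjusted p = 0.037, adjusted p = 0.53). Of 11 genes of transmitter synthesis and uptake, 5 were higher and 6 lower, with a median of -0.04 and 0 called. Slc6a13, the GABA transporter GAT2 found in meninges, averaged 4.94 ± 0.608 CPM after doxorubicin and 8.41 ± 0.804 CPM in sham. Its log2 fold change was -0.77 ± 0.27 (unadjusted p = 0.015, adjusted p = 0.49). The 6 fibroblast and meninges markers were lower in 6 of 6 genes with a median of -0.96, and 0 of these were called. Of 13 glutamate receptor scaffolds, 8 were higher and 5 lower, with a median of 0.03 and 0 called. Homer3, which links group I metabotropic receptors to the postsynaptic density, averaged 80.4 ± 12.6 CPM in doxorubicin libraries, against 56.8 ± 9.56 CPM in sham ones (log2 fold change 0.5 ± 0.17, unadjusted p = 0.014, adjusted p = 0.49). With MitoQ against doxorubicin the same lists had medians of -0.02, -0.03, -0.00 and -0.03, and 0 genes were called in any.

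Some exons are shared with other annotated genes, and no source used here gives the strand setting of the counting. Of the exon bases of Grin1, 29.9% overlap the antisense gene Grin1os, which had 316 counts over all libraries. Of those of Gabra5, 4.98% overlap Gm9962 on the other strand, which had 395. The loci of Gabra4 and Gabrb1 overlap by 196 bases in opposite orientation, but no exon bases shared between these genes were found. Reads of shared exons cannot be told apart without strand.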

How the data were processed

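The authors deposited raw read counts per gene symbol for 9 hippocampal libraries; STAR, DESeq2 and the build mm10 are named in the submitters' processing notes, with no versions. The sources used here name no counting program, annotation or strand setting. Groups were taken from the sample titles. Entries holding a date in place of a symbol (27 of 24421; 0.309% to 0.322% of counts) were left out, and 0 columns belonged to no sample. Receptor genes and lists were chosen with earlier results of these data known. Genes were filtered with filterByExpr (minimum count 10), scaled by TMM and fitted over all 9 libraries with the quasi-likelihood model of edgeR 4.0.16 in R 4.3.3; p-values were adjusted by Benjamini-Hochberg over 15296 genes and called under 0.05. A standard error (SE) was obtained as |log2 fold change| over the root of F; its median was 0.10 for receptor genes over the 3 comparisons. CPM uses TMM-scaled library sizes, in which 3 counts are 0.072 to 0.12 CPM. Marker levels are means of log2 CPM relative to the sham mean. The 6 subunit ratios were compared by exact permutation with scipy 1.17.1. Values in every library are given for the 4 receptor genes with the smallest p in each comparison, for those in ratios and for the 3 highest per kb. Tried besides were DESeq2 1.42.0, voom of limma 3.58.1, median-of-ratios scaling, no filter, a minimum of 1 CPM in 3 libraries, a fit of only the groups compared, the replicate number as a block, and the omission of each library. The procedure was tested on simulated counts, with planted differences larger than any fold change of a receptor gene. That test does not show whether differences of the sizes given here could be called. No 2 libraries agreed within sampling noise (chi-square per gene 9.47 to 33.9 within groups). Gene coordinates are from GENCODE M21 (GRCm38), promoters from RefSeq, with 22 of 32 genes matched.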

Additional observations from a re-analysis of the deposited data

How the results depend on the processing

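The count of 0 of 32 receptor genes called was obtained under every alternative that was run, in each comparison. Over all genes, calls for doxorubicin against sham were 44 with DESeq2, 1 with no low-count filter and 2 with the replicate block; for MitoQ against doxorubicin they were 5 with DESeq2 and 2 with no filter; for MitoQ against sham they were 2 with DESeq2. Leaving out single libraries gave 0 to 1, 0 to 3 and 0 to 3 calls over all genes, each highest without MitoQ replicate 2. Receptor genes at an unadjusted p under 0.05 for doxorubicin against sham, an alternative count chosen after seeing the data, numbered 10, and 6 with only the groups compared, 12 with the replicate block and 3 to 11 when single libraries were left out. The median log2 fold change of the receptor genes for MitoQ against doxorubicin ranged from -0.03 to 0.10 over the left-out libraries. Leaving out single libraries moved these differences in log2 ratio across 0: Grin2a/Grin2b for doxorubicin against sham (-0.21 to 0.03) and MitoQ against doxorubicin (-0.22 to 0.03), Gria1/Gria2 (-0.02 to 0.02) and Gria3/Gria2 (-0.02 to 0.07) for MitoQ against doxorubicin, and Grik2/Grik5 in the 3 comparisons (-0.17 to 0.05, -0.02 to 0.2 and -0.08 to 0.13). The causes were not tested. Same-numbered libraries did not deviate together (correlations from -0.57 to 0.46), so the replicate numbers are not read as pairs. With a median standard error of 0.10, differences of the sizes given here did not pass the adjusted threshold.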
